A study of Mus musculus with 32 samples.

Results

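Proteins of the lipid droplet surface were followed here through the mRNA of 10 genes in mouse liver. They were taken by name: the perilipins Plin2, Plin4 and Plin5, the CIDE family members Cidea, Cideb and Cidec, the lipolysis inhibitor G0s2, the hepatocyte droplet enzyme Hsd17b13, and the droplet-forming proteins Fitm1 and Fitm2. All 10 were found among the 35523 genes to which the estimated counts could be summed. The study compared Nudt7-/- (KO) mice with wild-type (WT) littermates, where Nudt7 encodes a peroxisomal enzyme that hydrolyses coenzyme A and its thioesters. Libraries of mRNA, made from total RNA of liver, were sequenced from 32 mice, 4 in each of 8 groups. These were WT and KO, males and females, on a control diet (CD) or a Western diet (WD). The diets began at 6 weeks of age and the livers were taken at 17 to 20 weeks. The WD gave 41% of calories as fat with 0.2% cholesterol, and the CD gave 10% with no cholesterol. The deletion removed exons of Nudt7 in every tissue, came from a single founder edited in FVB zygotes, and was backcrossed to C57BL/6J, so KO mice share one allele. All 8 groups came from that backcross, and p-values measure the spread between the 4 mice of a group. Whether the mice sequenced were fed or fasted is not given in the sources used here.

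Lipid droplets store triglyceride and cholesteryl ester in a core covered by one layer of phospholipid. The FIT proteins sit in the endoplasmic reticulum and help the core lipid to bud off. Perilipins coat the droplet and limit the access of lipases, CIDE proteins act where droplets touch and let lipid pass from small droplets to large ones, and G0S2 binds and inhibits the lipase ATGL. In hepatocytes perilipin 2 is the usual coat, whereas perilipin 1, perilipin 4, CIDEA and CIDEC are best known from fat tissue, where CIDEA marks brown fat.

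Each library held between 10140048 and 15825078 estimated counts, with a median of 13000302. Nudt7 itself was lower in all 4 KO libraries than in the matching 4 WT libraries at each sex and diet, by 4.47-fold on average (adjusted p = 1.5e-06). Hepatocyte markers summed to between 45280 and 96810 counts scaled to library size (CPM), with lower group medians on the WD. The medians were 82100 CPM on the CD and 63070 on the WD in WT males, and 85970 and 47200 in KO males. In WT females they were 84700 and 66530, and in KO females 87420 and 72000. In edgeR, 4 of the 5 markers were lower on the WD on average (adjusted p under 0.05), where 19.4% of all genes were called. These were Alb, Cps1, Serpina1c and Ttr. In 4 libraries, WT females on the CD 2 and 4, KO females on the CD 3 and WT females on the WD 4, pancreatic acinar markers summed to more than 300 CPM. In 2 others, WT males on the WD 4 and KO females on the WD 4, the brown adipocyte markers summed to 16.15 and 23.58 CPM, against at most 8.504 CPM elsewhere. Effects were refitted without each set, an alternative chosen after seeing the data, and diet and sex results whose call changed or whose size moved most are also given without them. In whole liver, fewer cells of a type and less RNA per cell cannot be told apart.

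Per unit of transcript length (TPM, scaled for length and library size), the levels of the 10 genes spanned more than 2 orders of magnitude. Plin2 led with 305.54 ± 85.0 TPM (SD, n = 32 libraries), followed by Hsd17b13 with 279.83 ± 45.2 and Cideb with 213.5 ± 15.9. The first pair could not be ordered, because Plin2 was above Hsd17b13 in 18 of 32 libraries, whereas Hsd17b13 was above Cideb in all 32. G0s2 stood at 135.11 ± 110 TPM, below Cideb in 26 libraries and above Plin5 in all 32. The middle of the order held Plin5 at 23.9 ± 6.28, Fitm2 at 15.1 ± 4.63 and Fitm1 at 12.1 ± 11.4 TPM, with Plin5 above Fitm2 in 29 libraries and Fitm2 above Fitm1 in 23. Cidec averaged 4.16 ± 10.3 TPM with a median of only 1.13. Plin4 at 0.619 ± 1.11 and Cidea at 0.592 ± 1.22 TPM were close to the limit of detection, and Plin4 exceeded Cidea in 11 libraries.

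The spread between mice of one group also set the genes apart, as the plot of CPM in every mouse shows. On the log2 CPM scale the SD within groups was 0.12 for Cideb and 0.19 for Hsd17b13, below the median of all genes of 0.23. It was 0.30 for Fitm2 and 0.35 for both Plin2 and Plin5. Fitm1 reached 0.66, G0s2 0.90 and Cidec 1.07, so that 4 mice a group resolve far smaller changes in Cideb than in Cidec.

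**Figure D1:**
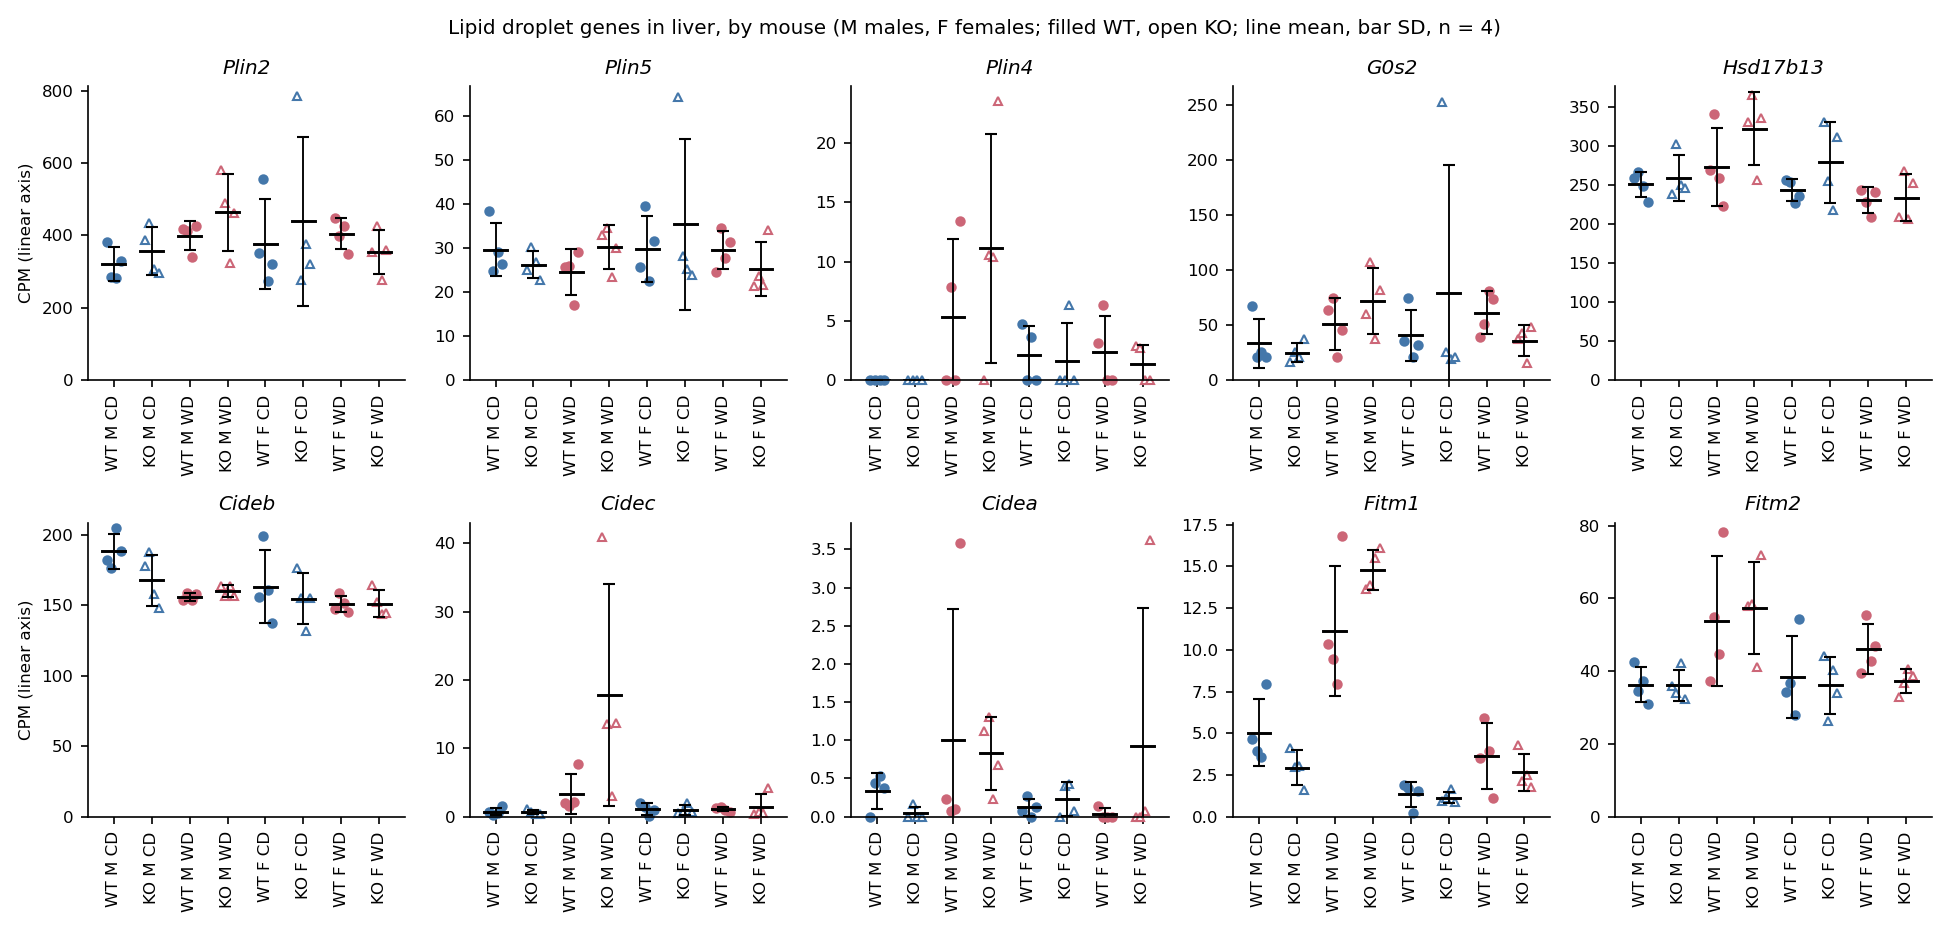
Library-scaled counts (CPM) in each of the 32 livers, one panel per gene on a linear axis, with the groups along the horizontal axis. Filled circles are WT and open triangles KO mice, blue is the CD and red the WD, lines are means and bars SDs (cut at 0). Fitm1 rises with the WD and is higher in males, Cidec is highest in KO males on the WD at 3.01 to 41.0 CPM, and KO females on the CD 1 stands above its group for Plin2, Plin5 and G0s2.

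RefSeq promoter windows (GRCm38.p6, 250 bases before to 50 after the start) were found for 9 of the 10 genes. Those of the 3 genes called most clearly by diet are shown with that of Plin2, the most abundant member, since the windows differ in the motifs they hold. Each runs 5′ to 3′ on the gene's strand and stops within 10 bases after the first annotated exon base, and capitals mark motif matches. Fitm1 is at chr14:55575424-55575626 on the plus strand, Fitm2 at chr2:163472620-163472879, Cidec (first start) at chr6:113435751-113436010 and Plin2 at chr4:86670051-86670309, all on the minus strand.
Fitm1: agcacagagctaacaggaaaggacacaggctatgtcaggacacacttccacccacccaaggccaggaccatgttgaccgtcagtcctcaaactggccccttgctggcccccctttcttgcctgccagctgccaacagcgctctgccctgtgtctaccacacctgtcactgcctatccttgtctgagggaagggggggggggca
Fitm2: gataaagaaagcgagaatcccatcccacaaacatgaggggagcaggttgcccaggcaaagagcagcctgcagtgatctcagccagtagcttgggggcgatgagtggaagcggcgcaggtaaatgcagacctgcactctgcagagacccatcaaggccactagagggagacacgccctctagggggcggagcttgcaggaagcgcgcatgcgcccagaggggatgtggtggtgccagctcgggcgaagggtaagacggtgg
Cidec: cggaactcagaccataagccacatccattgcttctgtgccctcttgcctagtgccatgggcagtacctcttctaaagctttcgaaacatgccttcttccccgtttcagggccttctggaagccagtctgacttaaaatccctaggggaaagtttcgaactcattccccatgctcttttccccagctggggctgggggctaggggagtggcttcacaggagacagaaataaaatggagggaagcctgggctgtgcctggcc
Plin2: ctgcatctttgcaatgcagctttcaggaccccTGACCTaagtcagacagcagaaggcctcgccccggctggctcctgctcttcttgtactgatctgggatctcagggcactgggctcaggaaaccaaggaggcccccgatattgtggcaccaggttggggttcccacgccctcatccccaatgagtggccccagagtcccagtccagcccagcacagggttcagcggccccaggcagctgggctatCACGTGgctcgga

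The motifs were searched on both strands over the whole 300-base windows. They were CAAAGGTCA, the core of the direct repeat read by PPAR and RXR receptors, the E-box CACGTG, the sterol response element TCACNCCAC, and the single receptor site AGGTCA, which lies inside the first and was added after the others had been searched. Plin2 held the E-box 4 bases before its start and the single site, as its complement TGACCT, at 218 bases before it. Of the other windows, Plin5 held the single site at both of its starts and Hsd17b13 once. No window of Fitm1, Fitm2, Cidec, Plin4, Cideb or G0s2 held any of the 4. Among all 32851 promoter windows, 0.478% held CAAAGGTCA, 7.15% CACGTG, 1.24% TCACNCCAC and 16.3% AGGTCA. These matches are letters in a window, and binding was not measured.

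In edgeR, diet was the condition with the most members called, whereas DESeq2 called 4 by the mean diet effect and 5 by the mean sex effect. Averaged over sex and genotype, the WD raised Fitm1 2.88-fold, Cidec 3.62-fold and Fitm2 1.31-fold. Plin4 was also called, from libraries mostly at 0. The test, edgeR's quasi-likelihood test with Benjamini-Hochberg adjustment over all 13539 genes, therefore called 4 of 10 genes higher and none lower, where it called 19.4% of all genes in either direction. Without Plin4 the median log2 difference of the members was 0.39, beside -0.01 over all genes tested. The members were chosen with earlier results of these data known, so these values describe them and do not test them as a set. Within single pairs of groups the calls fell in males. In WT males 1 of 8 genes tested was called (13.7% of all genes) and in KO males 2 of 8 (2.60%). In WT females none of 9 was called (0.0785%), with 1 at an unadjusted p under 0.05, and in KO females none of 7 (0.125%), again with 1, and DESeq2 called none in either.

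**Figure D2:**
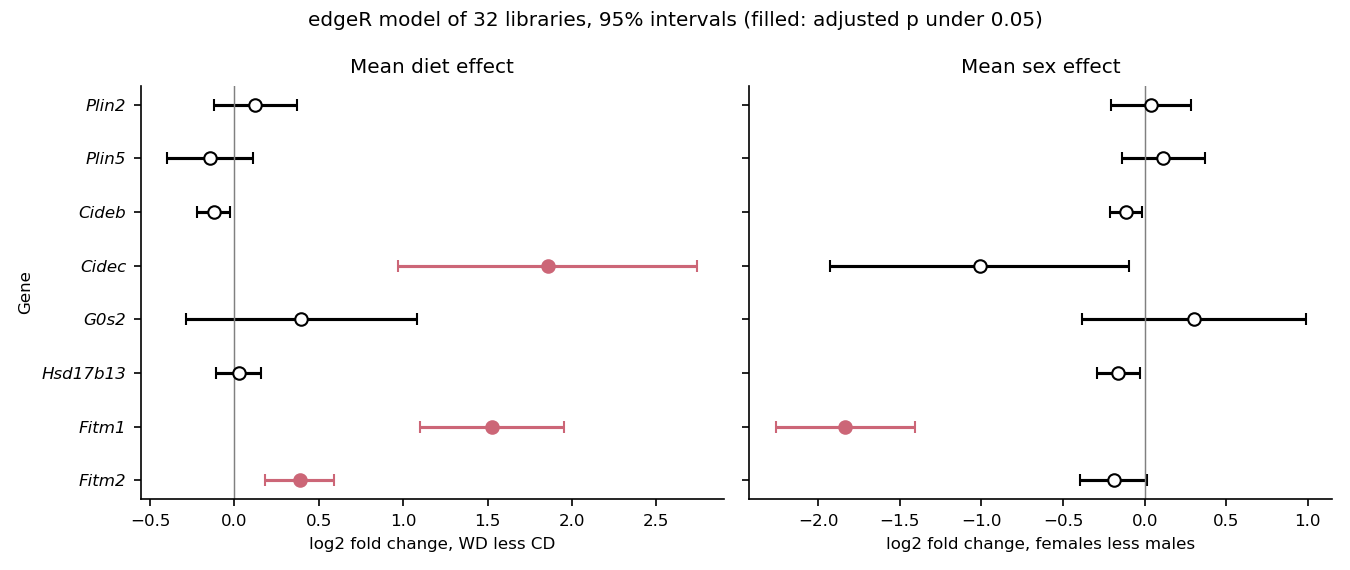
Log2 fold changes of 8 genes for the mean effects of diet (WD less CD) and sex (females less males) over the 32 livers. Bars are 95% confidence intervals, and filled points have an adjusted p under 0.05. Plin4 and Cidea are left out because most or many libraries are at or near 0. Filled points are Fitm1, Cidec and Fitm2 for diet and Fitm1 for sex.

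Fitm1 gave the clearest pattern of the 10. FIT1 is the family member best known from muscle, and its paralogue FIT2 is expressed in most tissues. In WT males Fitm1 measured 4.68, 3.96, 3.56 and 7.97 CPM on the CD and 10.4, 9.45, 7.98 and 16.8 on the WD. The groups just failed to overlap, since the highest CD mouse and the lowest WD mouse were nearly level. In KO males it measured 4.11, 2.99, 3.05 and 1.58 CPM on the CD and 13.6, 13.9, 15.5 and 16.1 on the WD, with a wide gap between the diets. The change was 2.25-fold in WT males (log2 1.17, 95% CI 0.50 to 1.84, adjusted p = 0.0324) and 5.01-fold in KO males (log2 2.32, 95% CI 1.85 to 2.80, adjusted p = 0.000273). The difference between these 2 effects was 1.16 on the log2 scale and did not pass the test (adjusted p = 0.39).

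In females Fitm1 was scarcer, and its diet difference did not pass the test in either genotype. WT females had 1.89, 1.70, 0.226 and 1.51 CPM on the CD and 3.53, 5.94, 3.95 and 1.10 on the WD. KO females had 0.953, 1.14, 1.64 and 0.846 CPM on the CD and 4.27, 2.16, 2.50 and 1.75 on the WD, where the groups did not overlap. The log2 differences were 1.45 (adjusted p = 0.557) and 1.20 (adjusted p = 0.221). Compared directly, the female effect less the male effect was -0.41 (adjusted p = 0.755). Averaged over the 4 pairs the increase was 1.53 ± 0.21 on the log2 scale (SE; 95% CI 1.10 to 1.95, adjusted p = 1.3e-05). It was called with each of the 32 libraries left out in turn, whereas the call within WT males was made in only 3 of 8 such fits. Without WT males on the WD 4 the effect in WT males was 0.90 (adjusted p = 0.0451), and without the acinar libraries that in WT females was 2.10 (adjusted p = 0.317). Skeletal muscle, where FIT1 is abundant, was followed through its markers. Between groups, their sum was 0.384 to 0.850 CPM in KO males on the WD, which had the highest mean Fitm1, and reached 770 CPM in KO females on the CD, which had the lowest. Within some groups the order was the opposite. In KO females on the CD the muscle sums of 6.85, 67.0, 184.5 and 770 CPM went with 0.846, 0.953, 1.14 and 1.64 CPM of Fitm1. In WT females on the CD the lowest and the highest muscle sums, 1.43 and 123 CPM, were those of the mice with the lowest and the highest Fitm1. In WT males on the WD, mouse 4 was highest for both, at 43.8 CPM of muscle markers and 16.8 CPM of Fitm1. In other groups the mouse with the highest muscle sum had the lowest Fitm1. Its muscle sum and Fitm1 were 34.2 and 3.56 CPM in WT males and 1.68 and 1.58 in KO males on the CD. They were 2.14 and 1.10 CPM in WT females and 4.34 and 1.75 in KO females on the WD. In KO males on the WD that mouse, at 0.850 CPM, had neither the highest nor the lowest Fitm1. The part of muscle RNA in Fitm1 was not tested.

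Fitm2, the broadly expressed paralogue, changed less. In WT males it averaged 36.3 ± 4.90 CPM (SD, n = 4) on the CD and 53.8 ± 17.9 on the WD (log2 0.59, adjusted p = 0.113). Without mouse 4 of the WD group, which has brown adipocyte transcripts, the difference was 0.34 (adjusted p = 0.148). In KO males it measured 35.8, 33.9, 42.2 and 32.3 CPM on the CD and 57.9, 58.4, 41.1 and 71.9 on the WD. Only the third WD mouse fell inside the CD range, and the 1.61-fold change was called (log2 0.68, adjusted p = 0.0467). This call was lost in 7 of 8 fits that left out 1 library. In females the log2 differences were 0.27 in WT (adjusted p = 0.724) and 0.05 in KO mice (adjusted p = 0.964). The mean diet effect of 0.39 ± 0.10 (adjusted p = 0.00755) was called in all 32 fits without 1 library.

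**Figure D3:**
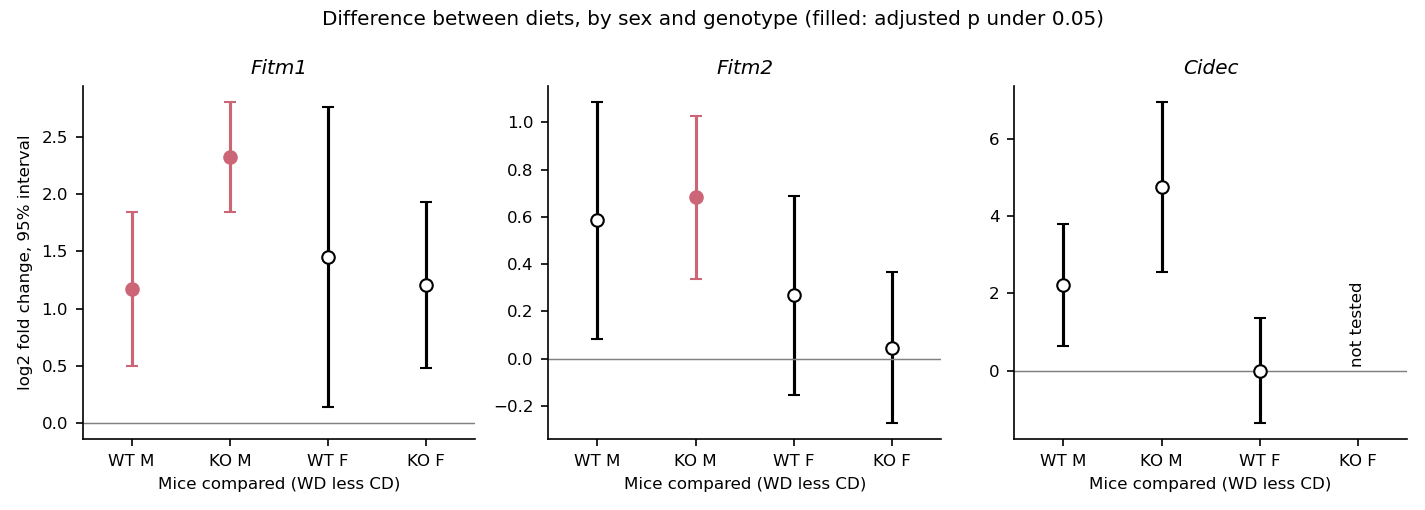
Diet effects (log2 of WD over CD) on Fitm1, Fitm2 and Cidec within males and females of each genotype, with 95% confidence intervals. Fitm1 lies above 0 in all 4 pairs, from 1.17 to 2.32, Fitm2 lies nearer 0 in females than in males, and Cidec is far above 0 in males only, with no test in KO females for lack of counts.

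Cidec, whose product lets droplets fuse and grow, had a larger and far more scattered difference between the diets. In WT males it measured 0.607, 0.293, 0.534 and 1.52 CPM on the CD and 1.94, 1.48, 2.21 and 7.65 on the WD. In KO males it measured 1.06, 0.664, 0.412 and 0.421 CPM on the CD and 41.0, 13.6, 3.01 and 13.8 on the WD. The KO males did not overlap between diets, and the WD mice themselves spread more than 10-fold. The differences were 4.65-fold in WT males (adjusted p = 0.0688) and 27.1-fold in KO males (95% CI 5.91 to 124, adjusted p = 0.0506), both short of the threshold in edgeR with the main settings. Of the alternatives, 4 of 10 called it in WT males, among them DESeq2 (adjusted p = 0.00275), and 6 of 9 in KO males, among them DESeq2 (adjusted p = 4.6e-07).

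No such difference was seen in females. Cidec averaged 1.10 ± 0.825 CPM in WT females on the CD and 1.08 ± 0.301 on the WD, a log2 difference of -0.00 with a 95% CI of -1.36 to 1.35. In KO females it was too low to be tested, at 0.972 ± 0.736 CPM on the CD and 0.318 to 0.601 CPM in 3 of the WD mice. The remaining mouse, number 4, had 4.21 CPM. The female diet effect less the male one was -3.23 on the log2 scale (adjusted p = 0.125). It was -3.61 without the 2 libraries with brown adipocyte transcripts (adjusted p = 0.0364) and -4.03 without KO females on the WD 4 alone (adjusted p = 0.0196). The mean diet effect was 1.86 ± 0.43 (adjusted p = 0.00356), and 1.26 without those 2 libraries (adjusted p = 0.0255).

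Fat tissue expresses Cidec strongly, so its markers are given beside it. The 7 adipocyte markers summed to between 14.1 and 17.9 CPM in KO males on the CD and between 41.6 and 115 CPM in KO males on the WD. Cfd made up most of the second sum in mice 2, 3 and 4, at 26.4, 69.8 and 95.7 CPM. In mouse 1 Cfd was 18.7 of 41.6 CPM, below Fabp4. In those 4 libraries Adipoq was at most 0.155 CPM, Plin1 at most 0.168, and Ucp1, Lep and Retn were at 0. Fabp4 was at 19.54, 11.05, 9.66 and 8.47 CPM there, against 6.22 to 8.40 in KO males on the CD, and was highest in mouse 1, which also had the highest Cidec. Adrb3, the last of the 7, was at 3.35 to 10.2 CPM on the WD and 7.78 to 8.89 on the CD. The part of fat RNA in Cidec was not tested. In WT males on the WD 4, which had the highest Cidec of its group, Ucp1 was at 13.4 CPM and Adipoq at 3.30, and in KO females on the WD 4 they were at 19.5 and 2.59. Without the 2 libraries the difference in Cidec in WT males was 1.38 on the log2 scale rather than 2.22 (adjusted p = 0.0686).

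**Figure D4:**
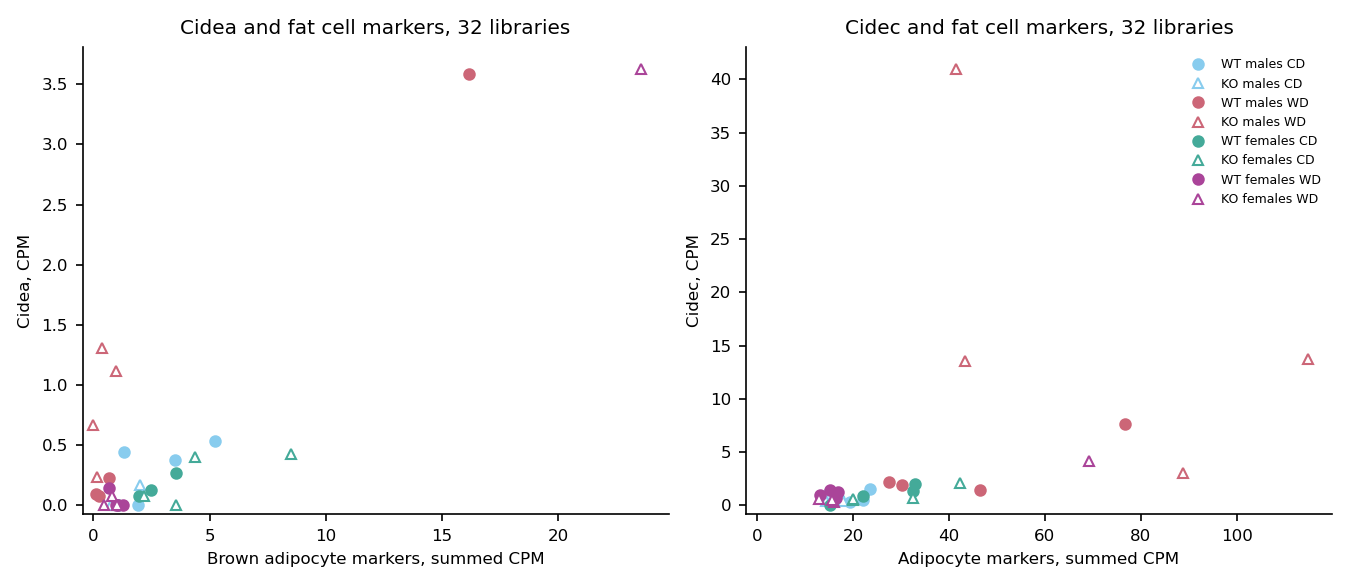
Cidea against the summed brown adipocyte markers and Cidec against the summed adipocyte markers, in CPM, one point per liver with the symbols of the groups. The 2 livers with the highest brown adipocyte sums, 16.15 and 23.58 CPM, hold the 2 highest Cidea values, 3.59 and 3.63 CPM, and the highest Cidec values belong to KO males on the WD.

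Cidea, the CIDE protein of brown fat, was scarce. It had 10 or more counts in only 4 of 32 libraries and none at all in 11. Its 2 highest values, 3.59 CPM in WT males on the WD 4 and 3.63 in KO females on the WD 4, came from the 2 libraries with brown adipocyte transcripts. Outside them it was highest in KO males on the WD at 1.12, 1.305, 0.232 and 0.671 CPM, against 0, 0.166, 0 and 0 on the CD. These groups did not overlap, but the counts were too low to be tested in any single pair. Ucp1 was at 0 in all 4 of those WD livers. Cidea was not called in the mean diet effect (adjusted p = 0.354).

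Cideb, the hepatocyte member of the family that also acts in the lipidation of very low density lipoprotein, was the steadiest gene, and its mean was lower on the WD in WT males. There it measured 182, 177, 205 and 188 CPM on the CD and 153, 159, 153 and 158 on the WD, without overlap. In TPM the groups did overlap, at 206 to 222 on the CD and 182 to 213 on the WD. The 1.19-fold difference did not pass the test (log2 -0.26, adjusted p = 0.0612), nor did the mean diet effect of -0.12 (95% CI -0.22 to -0.02, adjusted p = 0.0707). In WT males the difference ran from -0.27 to -0.11 over 10 alternatives, of which 1 called it (adjusted p from 0.0107 to 0.371). Its group means elsewhere lay between 151 and 168 CPM. Cideb overlaps Nop9 on the opposite strand over 1451 bases, where Nop9 itself had a mean of 189 counts a library. Of all genes tested in WT males 20.0% did not overlap in CPM between the diets, and 2 of the 8 members tested, Cideb and Fitm1, did not. In KO males these were 11.0% and 3 of 8 (Cidec, G0s2 and Fitm1), in WT females 5.02% and none of 9, and in KO females 5.83% and 1 of 7 (Fitm1).

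Plin2, the main coat protein of hepatocyte droplets, was not called by edgeR with the main settings in any comparison. It averaged 321 ± 46.8 CPM in WT males on the CD and 399 ± 39.8 on the WD, a 1.26-fold difference (adjusted p = 0.0902), which passed in 1 of 10 alternatives, DESeq2 with length offsets (adjusted p = 0.0308). In KO males the means were 357 ± 66.3 and 464 ± 107 CPM (1.31-fold, adjusted p = 0.312). Females varied more. WT females ranged from 273 to 556 CPM on the CD and from 348 to 448 on the WD, and KO females from 277 to 785 and from 277 to 427. The mean diet effect of 0.12 had a 95% CI of -0.12 to 0.37 (adjusted p = 0.509). With all libraries, an average increase of more than 1.29-fold is outside the interval. The estimate depended on single mice, at 0.08 to 0.23 in the 32 fits without 1 library (lowest adjusted p = 0.0859 in edgeR).

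Plin5, the perilipin that ties droplets to mitochondria, showed no diet difference past the test. Its group means lay between 24.5 and 35.4 CPM, and the mean diet effect was -0.14 (adjusted p = 0.45). Its reads fell on 2 transcripts, of which the first took a median of 62.9% (range 46.8% to 80.6%). Hsd17b13, a retinol dehydrogenase of hepatocyte droplets, had a mean diet effect of 0.03 with a 95% CI of -0.11 to 0.16 (adjusted p = 0.825). That mean joined estimates of opposite sign, 0.14 in WT and 0.33 in KO males and -0.08 in WT and -0.25 in KO females. The female less the male effect was -0.38 (95% CI -0.65 to -0.12, unadjusted p = 0.00639 from edgeR's quasi-likelihood test, adjusted p = 0.249). Its highest group was KO males on the WD at 331, 365, 256 and 336 CPM, against 238, 302, 250 and 246 on the CD (log2 0.33, adjusted p = 0.237).

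G0s2, which holds back lipolysis by ATGL, was among the most scattered genes. In KO males it measured 16.9, 25.4, 20.9 and 36.9 CPM on the CD and 60.1, 108, 37.4 and 81.5 on the WD. The lowest WD mouse lay just above the highest CD mouse, and the 2.90-fold difference fell short of the threshold in edgeR (log2 1.54, adjusted p = 0.0734). It passed in 3 of 9 alternatives, among them DESeq2 (adjusted p = 5.67e-05). In WT males it measured 66.9, 21.2, 25.3 and 20.8 CPM on the CD and 64.1, 74.4, 20.9 and 45.3 on the WD, with full overlap (adjusted p = 0.512). KO females on the CD held the most extreme value, with 253 CPM in mouse 1 against 25.2, 18.8 and 20.9 in the others. With that library the mean diet effect was 0.40 (adjusted p = 0.428), and without it 0.87 (adjusted p = 0.0123). G0s2 lies inside Lamb3 on the opposite strand, and Lamb3 had a mean of 49.5 counts a library.

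Plin4, a perilipin of fat and muscle, was either absent or clearly present. It was above 0 in 12 of 32 libraries, and where present it held 44 to 281 counts, with no library between 0 and 44. No male on the CD had a count (0 of 8), whereas 5 of 8 males on the WD did, at 7.89 and 13.4 CPM in WT and 10.6, 10.4 and 23.6 in KO mice. Among females 3 of 8 were above 0 on the CD and 4 of 8 on the WD, at 2.71 to 6.38 CPM. A count of 0 allows up to 3 counts, worth 0.19 to 0.297 CPM here for counting error only, and no fold is given against groups at 0. The reads went to one or the other of 2 transcripts of nearly equal length, the first in 9 libraries and the second in 3. What part the assignment of reads had in the zeros was not tested. The mean diet effect was called (adjusted p = 0.0431), but in only 11 of 32 fits without 1 library and not without the 2 libraries with brown adipocyte transcripts (adjusted p = 0.0636).

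Fitm1 was the member called between the sexes on average. Males had 3.57-fold more Fitm1 than females on average (log2 of females over males -1.84 ± 0.21, adjusted p = 8.8e-08), the only 1 of 10 called by edgeR, where 31.6% of all genes were called. In that effect 4 members had an unadjusted p under 0.05, and DESeq2 called 5. The others were Hsd17b13 (log2 -0.16, adjusted p = 0.0603), Cideb (-0.11, adjusted p = 0.0676) and Cidec (-1.01, adjusted p = 0.0831). Without the 2 libraries with brown adipocyte transcripts Cidec (-1.20, adjusted p = 0.0192) and Hsd17b13 (-0.19, adjusted p = 0.0299) passed, and without the 4 with acinar transcripts Fitm2 did (-0.28, adjusted p = 0.0462, against 0.151 with them). The male excess was 3.74-fold in WT mice on the CD (adjusted p = 0.0625), 3.03-fold in WT mice on the WD (adjusted p = 0.0577, or 0.0197 without the acinar library), 2.54-fold in KO mice on the CD (adjusted p = 0.0303) and 5.54-fold in KO mice on the WD (adjusted p = 5.6e-05). The lowest male value in any group, 1.58 CPM in a KO male on the CD, was below the highest female value on that diet. In KO mice on the WD Fitm2 was also lower in females, by 1.55-fold (32.9, 36.7, 40.5 and 38.8 CPM against 57.9, 58.4, 41.1 and 71.9, adjusted p = 0.0228). That call held in 4 of 8 fits without 1 library.

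The number of members called between the sexes was none of 8 in WT mice on the CD (2.24% of all genes), with 1 at an unadjusted p under 0.05 and 1 called by DESeq2. It was none of 9 in WT mice on the WD (9.64%), with 2 at an unadjusted p under 0.05 and 2 called by DESeq2. In KO mice it was 1 of 7 on the CD (6.66%) and 2 of 9 on the WD (9.66%). All 9 members tested in KO mice on the WD had lower means in females. Cidec was 12.6-fold lower there without passing the test (adjusted p = 0.0901), and Hsd17b13 differed by -0.47 on the log2 scale (adjusted p = 0.0545). Groups of the 2 sexes did not overlap for 1 of 8 members in WT mice on the CD (10.1% of all genes), 2 of 9 in WT mice on the WD (17.4%), none of 7 in KO mice on the CD (15.0%) and 2 of 9 in KO mice on the WD (17.2%).

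Loss of Nudt7 moved none of the 10 genes past the test. In the mean genotype effect none was called and none had an unadjusted p under 0.05, where 0.0886% of all genes were called, and DESeq2 called none. The intervals show what could have been missed. Cideb differed by -0.05 on the log2 scale (95% CI -0.15 to 0.05), Hsd17b13 by 0.13 (-0.01 to 0.26), Fitm2 by -0.08 (-0.29 to 0.13) and Plin2 by 0.10 (-0.15 to 0.35). The intervals of G0s2 (-0.62 to 0.75) and Cidec (-0.26 to 1.55) were much wider. For G0s2 the sign turned without KO females on the CD 1, from 0.06 to -0.40.

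Within single pairs the genotype called none of 7 members in males on the CD (0.00814% of all genes), none of 9 in males on the WD (0.0162%), none of 8 in females on the CD (0.0314%) and none of 9 in females on the WD (0.0156%), and DESeq2 called none in any of them. At an unadjusted p under 0.05 there was 1 member in each pair but females on the CD, which had none. In males on the CD this was Fitm1, at 2.93 ± 1.04 CPM in KO and 5.04 ± 2.01 in WT mice (adjusted p = 0.495). In males on the WD it was Cidec, at 17.8 ± 16.2 CPM in KO and 3.32 ± 2.90 in WT mice (5.43-fold, 95% CI 1.22 to 24.1, adjusted p = 0.499). In females on the WD it was Fitm2, at 37.2 ± 3.31 CPM in KO and 46.2 ± 6.88 in WT mice (adjusted p = 0.532). All 9 members tested in males on the WD had higher means in KO than in WT mice, whereas in males on the CD 2 of 7 did. The same KO males on the WD also enter the comparison of the sexes on the WD and the diet effect in KO males. Some members also varied together between mice of a group, so these signs are not independent of each other.

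Whether the diet effect differed between groups was tested directly. Between females and males none of 10 was called (0.244% of all genes), with 4 at an unadjusted p under 0.05, and DESeq2 called 2. Between KO and WT males none was called (0.0591%), with 1 at an unadjusted p under 0.05. Between KO and WT females none was called and none had an unadjusted p under 0.05, beside 0 (0%) called and 581 under that limit among all genes. DESeq2 called no member in the last 2. In males the estimated diet effect was larger in KO than in WT mice for the 9 members other than Plin4, which could not be fitted there, by a median of 0.48 on the log2 scale. For Cidec the difference was 2.55 (adjusted p = 0.43).

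A few members also varied together among mice of one group, apart from any condition. Deviations of log2 CPM from the group means were correlated over the 32 mice for all 45 pairs of members, with 100000 permutations within groups. By r, 4 of the 45 passed, and the others lay between -0.25 and 0.54. Plin5 and G0s2 moved together most closely (r = 0.84, rho = 0.74, permutation p = 0.0001, adjusted p = 0.0045 for r and 0.01125 for rho). The relation held without KO females on the CD 1 and KO females on the WD 4, the 2 mice farthest from the median in Plin5 (r = 0.75). Plin2 followed both, with r = 0.76 and rho = 0.64 to Plin5 (adjusted permutation p = 0.01275 and 0.01777) and r = 0.75 and rho = 0.60 to G0s2 (adjusted permutation p = 0.01642 and 0.02277). Without the 2 mice farthest out in Plin2 these fell to 0.58 and 0.55. KO females on the CD 1 was highest in its group for all 3, at 785 CPM for Plin2, 64.4 for Plin5 and 253 for G0s2. Plin5 lies 1797 bases from Plin4 on chromosome 17, and Plin2 and G0s2 lie on chromosomes 4 and 1.

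Plin5 and Fitm2 passed by rho only (rho = 0.61, adjusted permutation p = 0.01777, against r = 0.53, adjusted permutation p = 0.104). Cidea and Cidec were the remaining pair whose r passed the test (r = 0.70, rho = 0.68, adjusted permutation p = 0.01275 and 0.01777). The value was 0.56 without WT males on the WD 4 and KO females on the WD 4, the 2 libraries with brown adipocyte transcripts.

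**Figure D5:**
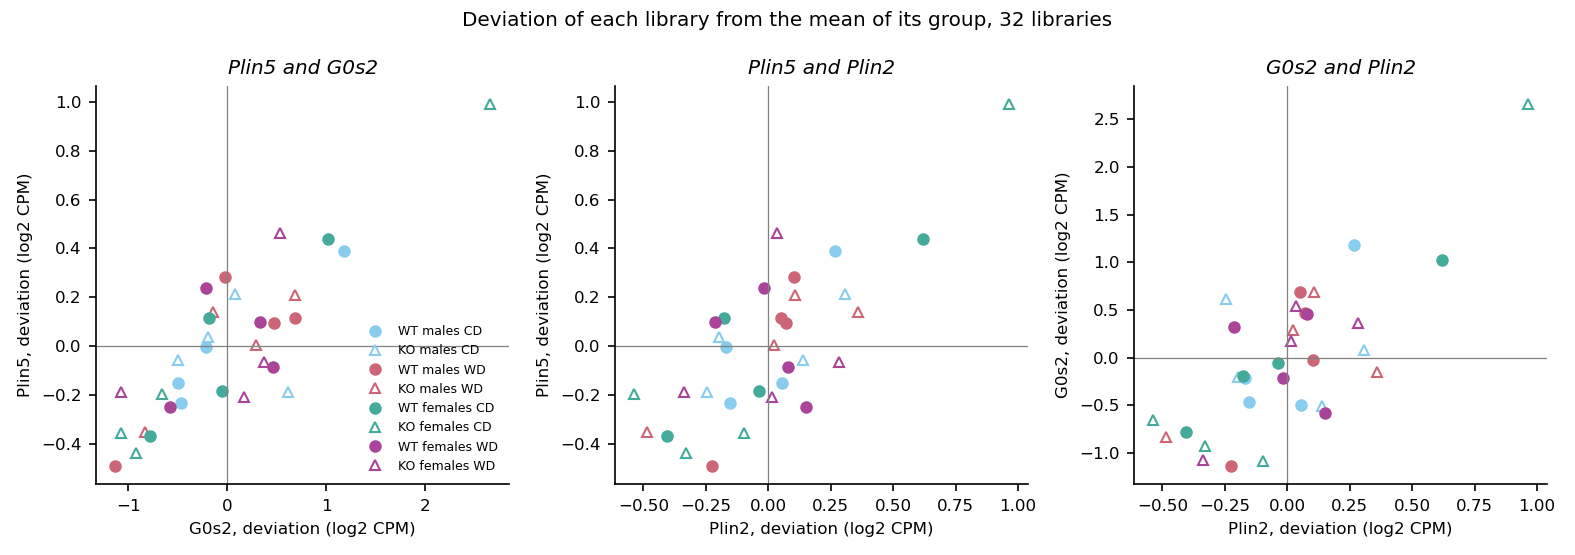
Deviations of log2 CPM from the group mean for Plin5 and G0s2, Plin5 and Plin2, and G0s2 and Plin2, one point per liver. The points rise together in each panel (r = 0.84, 0.76 and 0.75), with KO females on the CD 1 at the upper end.

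Among 26 further genes of droplet coat, formation, breakdown and contacts, the WD raised 4 and lowered 5 on average (19.4% of all genes were called), with a median log2 difference of -0.07. Hsd17b11, a droplet enzyme related to Hsd17b13, rose by 0.58 on the log2 scale (adjusted p = 2.05e-05), with WT males at 138 ± 12.4 CPM on the CD and 275 ± 70.5 on the WD, and KO males at 144 ± 24.8 and 269 ± 47.1. Gpat4, which starts glycerolipid synthesis on growing droplets, rose by 0.34 (adjusted p = 0.00181). Nsdhl, an enzyme of cholesterol synthesis that can sit on droplets, fell by 1.80 (adjusted p = 0.00011), and Dgat2, which makes triglyceride, fell by 0.34 (adjusted p = 0.00113). Spart and Mgll were also higher, and Aup1, Acsl3 and Pnpla3 lower. In WT males 3 of 25 tested were higher and 3 lower (13.7% of all genes), in KO males 1 (Hsd17b11) and 1 (Nsdhl) (2.60%), and none in either group of females. In WT females 2 of 25 had an unadjusted p under 0.05 and DESeq2 called none, and in KO females 2 of 25 did and DESeq2 called 1. In the mean genotype effect none of the 26 was called by edgeR or DESeq2, with 6 at an unadjusted p under 0.05. Between the sexes 5 were higher and 4 lower in females on average, close to the 31.6% of all genes called, among them Pnpla3 (log2 2.55, adjusted p = 0.00051) and Ldah (-0.55, adjusted p = 4.9e-13).

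Of 6 regulators of these genes, Pparg, the nuclear receptor that drives fat storage, rose with the WD by 1.09 on the log2 scale (adjusted p = 6.3e-07), and Ppara, its counterpart for fatty acid oxidation, was also called higher. The coactivator Ppargc1a was called lower, and Srebf1, Nr1h3 and Creb3l3 did not pass edgeR's test in the mean diet effect. In that effect 3 of the 6 were called, where 19.4% of all genes were, and DESeq2 called 5. In KO males Pparg was the only 1 of the 6 called by diet (2.60% of all genes), and in WT males Pparg, Ppara and Creb3l3 were called higher (13.7%). None was called by edgeR in WT females (0.0785%) or KO females (0.125%). There 2 and 3 of the 6 had an unadjusted p under 0.05, and DESeq2 called 0 and 1. Pparg measured 4.14 to 6.94 CPM on the CD and 7.68 to 10.1 on the WD in WT females. In KO females it measured 5.08 to 7.35 and 7.77 to 10.7 CPM.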

How the data were processed

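Liver RNA of 32 mice, 4 in each of 8 groups, was measured as estimated counts and TPM per transcript, which the authors made with Salmon 1.3.0 against Ensembl mouse transcripts and deposited one table a library. The deposited estimated counts and TPM were summed by gene through GENCODE vM21 (GRCm38), which held 115973 of 117135 transcripts. Between 0.315% and 0.424% of counts fell outside it. Counts were rounded. Groups came from the labels.

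Genes with at least 10 counts in 4 libraries were tested with edgeR 4.0.16 (R 4.3.3; TMM, robust quasi-likelihood fit, Benjamini-Hochberg adjustment over all genes tested, threshold 0.05) in 12 pairs of groups and in a model of all 32 libraries with 6 contrasts. CPM use TMM library sizes, and log2 CPM a prior count of 2. Estimated counts of overlapping genes on opposite strands may share reads.

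All 10 members were named in each comparison, of the other droplet genes at most 4 called per comparison by smallest p with the rest as counts, and for each member called in the mean diet effect the 3 genes with the highest correlation. The members, lists and rules were chosen with earlier results of these data known. Alternatives were other size factors, DESeq2 1.42.0, length offsets, other filters, a replicate block, a model of all libraries, CPM in place of TPM, and each library left out. Removing length trends, leaving out libraries with acinar or brown adipocyte transcripts, and the AGGTCA search were chosen after seeing the data. Mice with equal replicate numbers were not treated as paired in the main tests. Over 112 pairs of same-numbered mice the mean correlation of deviations was 0.0065, and the lowest was -0.45. A mean near 0 cannot exclude a link between some of these mice. No 2 libraries of a group were alike within counting noise.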

Additional observations from a re-analysis of the deposited data

Results flagged for a closer look

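In 11 of 78 sets of 4 mice (a member in a group, with values above 0), the highest mouse stood apart from the other 3 beyond Dixon's 95% critical value. Chance flags about 1 in 20 sets of normally distributed values, which CPM near 0 are not, so 11 of 78 is not set against that rate. Where only 1 mouse was above 0 the flag was fixed in advance. This holds for Plin4 in KO females on the CD and for Cidea in KO males on the CD and WT females on the WD. KO females on the CD 1 stood apart for G0s2, at 252.8 CPM against 18.8 to 25.2 in its group, and for Plin5, at 64.39 CPM against 23.8 to 28.2. Plin2 in the same mouse was 785 CPM. G0s2 also stood apart in WT males on the CD 1, at 66.9 CPM against 20.8 to 25.3.

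The 2 libraries with brown adipocyte transcripts gave 4 of the 11. WT males on the WD 4 had 7.649 CPM of Cidec, against 1.48 to 2.21 in its group, and 3.588 CPM of Cidea. KO females on the WD 4 had 4.211 CPM of Cidec, against 0.318 to 0.601, and 3.628 CPM of Cidea. KO females on the CD 3 holds acinar transcripts, and also had 770 CPM of skeletal muscle, 42.3 of adipocyte and 8.5 of brown adipocyte markers. Ucp1 was at 0 in that library, so the brown adipocyte sum came from the rest of its list, Cox7a1 and Cox8b. The same mouse had 2.065 CPM of Cidec, against 0.476 to 0.730, and was the only mouse of its group with Plin4, at 6.378 CPM. The part of these other tissues in the values was not tested. Cidea stood apart in 2 groups from very few counts, at 0.166 CPM in KO males on the CD 2 and 0.1439 CPM in WT females on the WD 1, the only mouse above 0 in each.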

How the results depend on the processing

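Fitm1, Cidec and Fitm2 were called higher by the WD on average under all 10 alternatives and with each library left out. The log2 ranges without 1 library were 1.44 to 1.61 for Fitm1, 1.47 to 2.04 for Cidec and 0.33 to 0.45 for Fitm2. The sex effect on Fitm1 was called throughout as well, at -1.93 to -1.75. The counts within single pairs were less stable, and the cause was not tested.

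Members called by diet in WT males (1) became 4 with DESeq2, 3 with DESeq2 and length offsets, 2 with edgeR and length offsets, 0 with no filter and 2 with a replicate block, and in KO males (2) they became 4, 4 and, with length trends removed, 1. By sex, none in WT mice on the CD became 1 with DESeq2, with or without length offsets, with the replicate block and in the model of all libraries. None in WT mice on the WD became 2 with DESeq2, with or without length offsets, and 1 with edgeR and length offsets, without length trends, without acinar libraries and in the model of all libraries. In the model the 1 in KO mice on the CD became 0 and the 2 on the WD became 4, as with both DESeq2 fits. The mean sex effect (1) gave 5 and 4 with DESeq2 without and with length offsets, 2 with edgeR and length offsets, 2 with the replicate block, 3 without length trends, 2 without acinar and 3 without brown adipocyte libraries. For females less males, none became 2 with both DESeq2 fits and 1 without brown adipocyte libraries.

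Leaving out 1 library gave 0 to 1 members by diet in WT males, 1 to 4 in KO males and 0 in females, 0 by genotype, 0 to 1 by sex in WT mice on either diet and in KO mice on the CD, and 1 to 3 in KO mice on the WD. It gave 3 to 5 for the mean diet, 1 to 3 for the mean sex effect and 0 to 1 for females less males. The replicate block changed the sign of the mean genotype effect on G0s2 (-0.011). Signs near 0 also turned without 1 library. The ranges were -0.0051 to 0.0502 for Hsd17b13 by diet, -0.0078 to 0.165 for Plin2, -0.0791 to 0.0762 for Plin5 and -0.404 to 0.209 for G0s2 by genotype, and -0.0705 to 0.0811 for Plin2, -0.00018 to 0.151 for Plin5 and -0.166 to 0.447 for G0s2 by sex. With 1 to 56 counts a library where detected, Cidea was limited by depth.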

Other observations

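Over the 32 libraries, the genes whose log2 CPM was most like that of Fitm1 were Them7 (r = 0.86), Tmem28 (r = 0.86) and Anxa7 (r = 0.86), and those most like Cidec were Osbpl3 (r = 0.88), Gnai1 (r = 0.81) and Themis (r = 0.79). Those most like Fitm2 were Paqr7, the mitochondrial carnitine carrier Slc25a20 and the peroxisome division factor Pex11a (r = 0.85 each). For Plin4 they were Mtrr (r = 0.70), Ccn1 (r = 0.59) and Pcsk6 (r = 0.59). These points share group, depth and library, so the values are descriptions.

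Within groups, Plin5 and G0s2 were each other's closest gene of all 13539 by the correlation of deviations from group means (r = 0.84, and 0.76 without KO females on the CD 1), a search made after seeing that the pair moved together. Plin5 was next closest to Mcrip2 (r = 0.80) and Nufip1 (r = 0.79), and G0s2 to the peroxisomal membrane protein Pxmp4 (r = 0.83) and to Epha2 (r = 0.82). Plin2 was closest to Wdr73 (r = 0.81) and to Fgf21, the hepatic fasting hormone (r = 0.76). In KO females on the CD 1 these stood above the rest of the group too, with Fgf21 at 3.97 CPM against 0.325 to 1.09, Pxmp4 at 166 against 73.7 to 93.1 and Epha2 at 42.4 against 13.4 to 15.3.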
